A study of Mus musculus with 16 samples.

Results

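Complement is a cascade of plasma proteins and cell receptors. Here 9 of its genes were followed in mouse hamstring muscle: C1qa, C1qb, C2, C3, C4b, Cfb, Cfp, C3ar1 and Serping1. They were taken as every probe on the array whose listed symbol equals one of these names, which gave 1 probe per gene, so 9 of the 25697 probes and 9 of 18097 symbols. A probe counts as detected on an array where its detection p-value is under 0.05, and 8 of the 9 genes were detected on all 16 arrays. C3ar1 was detected on none.

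Each array held RNA from the muscle of 1 female mouse taken 2 days after surgery, on an Illumina expression BeadChip. The mice had spinal cord injury (SCI) or a sham operation, and the muscle was injected with saline or with cardiotoxin (CDTX), a venom component that kills muscle fibres and sets off their regeneration. The 4 groups are written SCI+CDTX and Sham+CDTX for the toxin and SCI+Saline and Sham+Saline for its control. Each had 4 arrays, and SCI+CDTX replicate 2, which the authors excluded, was left out unless stated. Per the series design, bone forms in the muscle only in SCI+CDTX. Strain and age are not given in the sources used here, and all mice had an operation and an injection, so no untouched muscle is among the groups. All SCI arrays were on 1 slide and all sham arrays on another, so surgery and slide cannot be told apart in any SCI effect. Both CDTX effects lie within a slide. On both slides the array names end in A to D for CDTX and in E to H for saline. CDTX and position on the slide therefore cannot be told apart either.

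Complement is set off by C1q bound to immune complexes or dying cells (the classical pathway), by lectins, or by slow spontaneous activation of C3 that the alternative pathway amplifies. All routes meet at enzymes called convertases, which cut C3 and so coat targets for phagocytes and release a peptide read by the receptor encoded by C3ar1. Liver makes most plasma complement, but macrophages make C1q and properdin, and stromal cells in inflamed tissue can make C3, factor B and C4. In whole muscle, a change in the number of cells of a type and a change in RNA per cell cannot be told apart.

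The first 30 bases of each probe are shown because every level below rests on this single stretch of its transcript. They are in lower case with no part marked.
C1qa: gcttcagctgcgacgaggggacgaggtgtg
C1qb: tcgtggccgcgatcgggacagcatgcagaa
C2: ccaggattgtgccgggacctctgtgccacc
C4b: ttcctgatggagttcagcagccgggggtgc
C3: ggggcattcacagaatctatggtggtttat
Cfb: caagctcaaagatgaggatttgggttttct
Cfp: gaagaaaccctaaaatcccttgcttccatt
C3ar1: cctggaccatgctaatataaagtactgtat
Serping1: cctcttcctgctctgggaccagcaacacag
The array's own annotation puts the C1qa probe at chr4:136452139-136452188 and the C1qb probe at chr4:136436367-136436416. It puts C4b at chr17:34865419-34865468, Cfb at chr17:34993355-34993404 and C2 at chr17:34999628-34999677. Cfp is listed at chrX:20502682-20502731 and Serping1 at chr2:84566435-84566484, all 7 on the minus strand, and C3 and C3ar1 have no position. The annotation names no genome build. In the RefSeq order of protein-coding genes C1qb, C1qc and C1qa are direct neighbours on chromosome 4, and Cfb and C2 are direct neighbours on chromosome 17. C4b has a near-identical copy, C4a, so how much C4a RNA the C4b probe also binds is uncertain; C4a's own probe was not detected on enough arrays to be kept.

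Levels are log2 intensities after background correction and quantile normalization of the 15 arrays, and a difference of 1 is a doubling. A probe was kept where detected on at least 3 arrays, and called where its limma p, adjusted by Benjamini-Hochberg over all 14763 kept probes, was under 0.05. Of the 8 detected complement genes, CDTX raised 7 in SCI mice and lowered none, where 20.4% of all kept probes rose and 22.5% fell. In sham mice CDTX raised 5 and lowered 2, where 23.1% of all kept probes rose and 25.8% fell. The median log2 difference of the 8 genes was 1.65 in SCI mice and 0.78 in sham mice, beside medians of -0.05 and -0.04 over all kept probes.

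**Figure D1:**
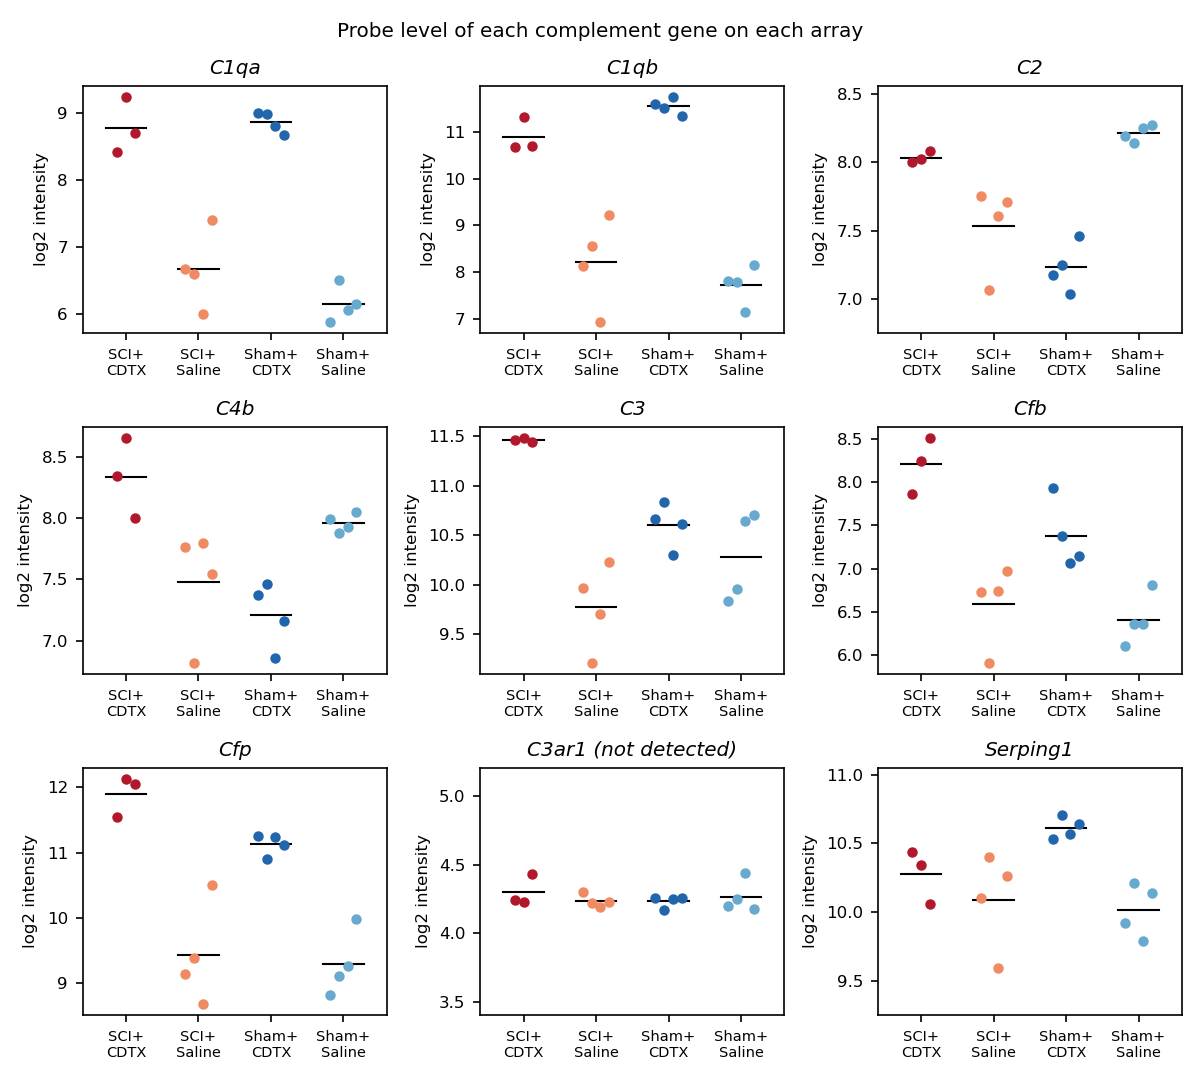
Log2 intensity (vertical axis) of each of the 9 complement genes by group (horizontal axis); each point is 1 of 15 arrays and the black line is the group mean. C1qa and C1qb stand apart in both CDTX groups, C2 and C4b are lower in Sham+CDTX than in SCI+CDTX, and C3ar1 stays at the background level in every group.

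C1q is the sensor of the classical pathway, built from 3 chains encoded by C1qa, C1qb and C1qc. Both chains among the 9 genes rose strongly with CDTX, after SCI and after sham surgery. C1qb lay at 10.67, 11.32 and 10.70 on the SCI+CDTX arrays and at 11.60, 11.50, 11.74 and 11.33 on the Sham+CDTX arrays. On the saline arrays it lay at 8.14, 8.57, 6.94 and 9.23 after SCI and at 7.81, 7.79, 7.15 and 8.15 after sham surgery. No CDTX array overlapped a saline array, and the SCI+Saline arrays were the most spread. The CDTX effect on C1qb was 2.68 ± 0.36 (standard error) in SCI mice, a 6.40-fold rise (limma, adjusted p = 1.33e-05). In sham mice it was 3.82 ± 0.33, a 14.1-fold rise (adjusted p = 5.19e-08).

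C1qa lay at 8.41, 9.23 and 8.69 in SCI+CDTX and at 9.0, 8.98, 8.80 and 8.67 in Sham+CDTX. Its saline levels were 6.67, 6.60, 5.99 and 7.40 after SCI and 5.88, 6.51, 6.05 and 6.14 after sham surgery. The CDTX groups again stood wholly above the saline groups. The CDTX effect was 2.11 ± 0.25 in SCI mice (limma, adjusted p = 5.07e-06) and 2.72 ± 0.24 in sham mice (adjusted p = 5.04e-08), 4.32-fold and 6.58-fold. Neither chain passed the test for SCI in CDTX muscle: C1qa differed by -0.09 (95% interval -0.62 to 0.45) and C1qb by -0.64 (-1.39 to 0.11), although all SCI+CDTX arrays were below all Sham+CDTX arrays for C1qb. C1qb passed when only these 2 groups were fitted, at -0.59 (adjusted p = 0.012), and with array weights over 16 arrays, at -0.72 (adjusted p = 0.0214). In saline muscle the SCI differences were 0.52 (0.03 to 1.01, adjusted p = 0.108) and 0.50 (-0.20 to 1.19, adjusted p = 0.289). These last values depended on SCI+Saline replicate 3, the array of its group lowest for both chains: without it they were 0.74 (adjusted p = 0.0163) and 0.92 (adjusted p = 0.0103). Without it the interaction of C1qb, the difference between its CDTX effects in SCI and sham mice, went from -1.14 (adjusted p = 0.0996) to -1.56 (adjusted p = 0.00358). After median scaling with all 15 arrays the interaction passed for both chains, at -1.65 for C1qb (adjusted p = 0.0192) and -0.99 for C1qa (adjusted p = 0.0414).

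C1qc, the third chain, is no member of the 9 but moved most like C1qb of all kept genes. The measure of likeness was the root mean square difference between centred log2 levels over the 15 arrays, 0.22 for this pair. C1qc rose by 2.36 ± 0.32 with CDTX in SCI mice (limma, adjusted p = 1.4e-05) and by 3.52 ± 0.29 in sham mice (adjusted p = 3.27e-08). The next genes most like C1qb were Cotl1 and Sirpa, both at 0.26. For C1qa they were Ctsz at 0.24, Shisa5 at 0.27 and Csf1r, the receptor that macrophages need for survival, at 0.28.

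The bases before the start sites of C1qb and C1qc are shown because these neighbouring genes moved together. They are the 250 bases upstream in the RefSeq table on GRCm38.p6, both read on the minus strand, and capitals mark motif matches. The C1qb window is chr4:136886201-136886450 and the C1qc window is chr4:136892915-136893164.
C1qb: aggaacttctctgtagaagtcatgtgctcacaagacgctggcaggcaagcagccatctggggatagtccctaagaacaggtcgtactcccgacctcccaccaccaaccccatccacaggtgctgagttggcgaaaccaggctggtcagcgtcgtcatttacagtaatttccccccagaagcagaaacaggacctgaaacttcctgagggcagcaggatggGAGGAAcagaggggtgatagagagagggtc
C1qc: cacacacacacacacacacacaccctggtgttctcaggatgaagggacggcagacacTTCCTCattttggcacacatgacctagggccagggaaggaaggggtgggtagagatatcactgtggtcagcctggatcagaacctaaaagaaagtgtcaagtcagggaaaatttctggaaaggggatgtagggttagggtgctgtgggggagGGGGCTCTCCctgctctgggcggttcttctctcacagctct
Windows were found for 4 of the 9 genes, C1qb, C3, C3ar1 and Cfp, and not for C1qa, C2, C4b, Cfb or Serping1. Searched on both strands were the core GAGGAA, to which the myeloid factor PU.1 can bind, a kappaB motif, the STAT motif TTCNNNGAA, the interferon response motif GAAANNGAA, the C/EBP motif TTGCNNAA and the AP-1 motif TGANTCA. C1qb held the PU.1 core 30 bases before the start, and C1qc held it 193 bases before, written there as its complement. C1qc also held a kappaB match 41 bases before the start. The core occurs in 23.3% and the kappaB motif in 3.9% of 32851 such mouse windows, and a match of letters is not a binding site. C3 held the C/EBP motif 45 bases before its start and C3ar1 the AP-1 motif 22 bases before, which occur in 9.56% and 6.75% of windows. The STAT and interferon motifs, in 7.02% and 7.13% of windows, were found in none of the 5 windows, and Cfp held none of the 6 motifs.

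Markers of macrophages rose beside the C1q genes. Of a list of 10 macrophage and monocyte genes 8 were kept. With CDTX 7 of the 8 rose in SCI mice, all but Cx3cr1, and 7 in sham mice, all but Cd163. Cx3cr1, detected on 4 Sham+CDTX, 2 SCI+CDTX and 0 saline arrays, passed the detection filter only through Sham+CDTX, where it is high. Of all kept probes 20.4% rose and 22.5% fell in SCI mice, and 23.1% rose and 25.8% fell in sham mice. Their summed normalized intensity was 12500 to 18000 in SCI+CDTX and 15300 to 18400 in Sham+CDTX, but 937 to 4040 in SCI+Saline and 1200 to 2170 in Sham+Saline. Ccr2 and Mpeg1 were the 2 genes of the list without a kept probe. Of 7 fibroadipogenic genes, all kept, 4 rose in SCI mice, and 6 rose and 1 fell in sham mice. Of 11 neutrophil genes 8 were kept. Csf3r and Retnlg rose with CDTX after either operation, and the other 6 were not called. The median of the 8 was -0.33 in SCI mice and -0.03 in sham mice. Camp, Elane, Ltf and Mpo had lower means with CDTX than with saline after either operation. The neutrophil sum was 3040 to 5070 in SCI+CDTX and 668 to 963 in Sham+CDTX, but 2090 to 13500 in SCI+Saline and 177 to 11800 in Sham+Saline; Ly6g, Cxcr2 and Ngp were not kept. What part these cells had in the complement differences was not tested.

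**Figure D2:**
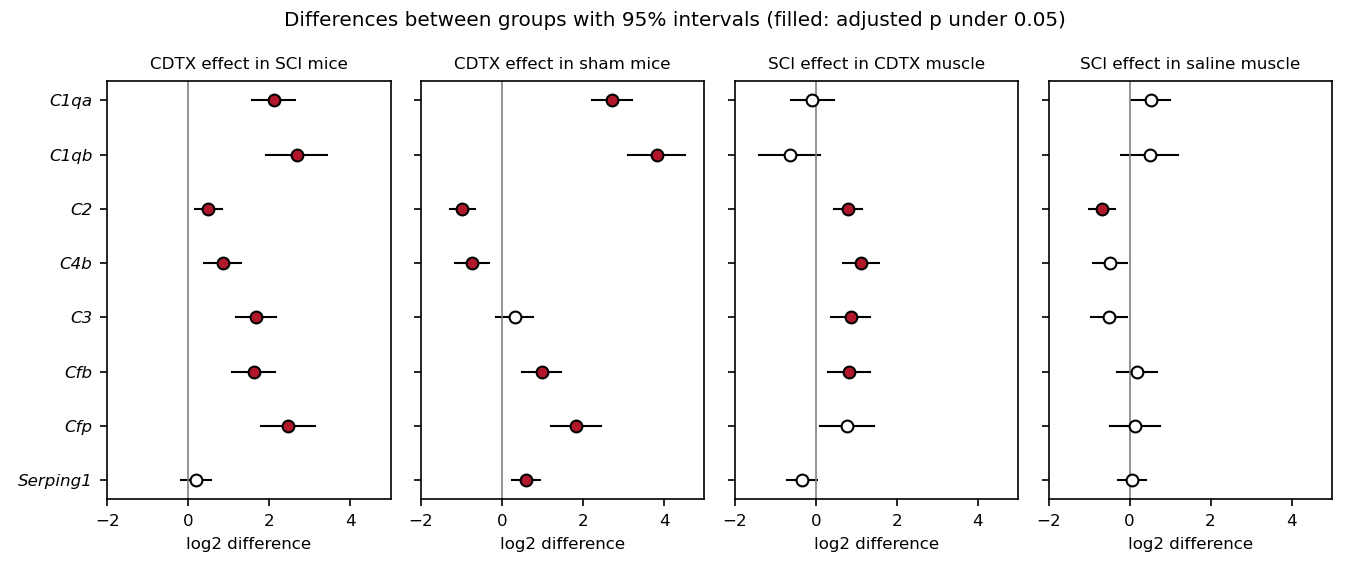
Log2 difference (horizontal axis) of the 8 detected complement genes in 4 comparisons, with 95% intervals as lines; filled points passed the limma test. CDTX effects are largest for the C1q chains and Cfp, and C2 and C4b lie on opposite sides of 0 in SCI and in sham mice, though after median scaling C4b in sham mice stands at 0.04.

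Cfp encodes properdin, the only known complement protein that stabilizes a convertase, and myeloid cells are a main source of it. It rose with CDTX after either operation. Its levels were 11.54, 12.12 and 12.04 in SCI+CDTX and 11.26, 10.90, 11.24 and 11.11 in Sham+CDTX. On saline arrays it lay at 9.15, 9.39, 8.69 and 10.51 after SCI and at 8.82, 9.11, 9.27 and 9.98 after sham surgery. All CDTX arrays were above all saline arrays, and all SCI+CDTX arrays were above all Sham+CDTX arrays. The CDTX effect was 2.46 ± 0.32 in SCI mice (5.51-fold; limma, adjusted p = 9.79e-06) and 1.83 ± 0.29 in sham mice (3.57-fold; adjusted p = 4.48e-05). The SCI effect in CDTX muscle, 0.77 (95% interval 0.10 to 1.44), did not pass (adjusted p = 0.0781). It passed when only these 2 groups were fitted, at 0.72 (adjusted p = 0.00294). It also passed without SCI+Saline replicate 4, the highest saline array (adjusted p = 0.0166), and so did the interaction, which was 0.99 without that array (adjusted p = 0.0332) and 0.63 with it (adjusted p = 0.325). The genes most like Cfp were Renbp at 0.20, Fam111a at 0.21 and Anxa2 at 0.22.

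Cfb encodes factor B, the protease of the alternative pathway convertase, and it also rose with CDTX after either operation. It lay at 7.86, 8.25 and 8.51 in SCI+CDTX and at 6.73, 5.91, 6.74 and 6.97 in SCI+Saline. In sham mice it lay at 7.93, 7.38, 7.07 and 7.15 with CDTX and at 6.10, 6.36, 6.36 and 6.81 with saline. After either operation the CDTX arrays lay above the saline arrays. The CDTX effect was 1.62 ± 0.25 in SCI mice (3.07-fold; limma, adjusted p = 5.41e-05) and 0.98 ± 0.23 in sham mice (1.97-fold; adjusted p = 0.00179). In CDTX muscle Cfb was 0.82 ± 0.25 higher after SCI (adjusted p = 0.0177), although Sham+CDTX replicate 1 overlapped the SCI+CDTX arrays. That call was lost without SCI+CDTX replicate 3 (adjusted p = 0.0562), SCI+CDTX replicate 4 (0.102), Sham+CDTX replicate 3 (0.0553) or Sham+CDTX replicate 4 (0.0523), each an adjusted p. Among the genes most like Cfb were Mdfic at 0.27 and Myd88, an adaptor of Toll-like receptors, at 0.28.

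C3 is the protein on which all 3 routes converge. Its level was highest in SCI+CDTX, at 11.46, 11.48 and 11.44, and every other array lay lower. Sham+CDTX arrays were at 10.66, 10.84, 10.30 and 10.61. Saline arrays were at 9.97, 9.21, 9.70 and 10.23 after SCI and at 9.83, 9.96, 10.64 and 10.70 after sham surgery, so C3 in Sham+CDTX and Sham+Saline overlapped. CDTX raised C3 by 1.68 ± 0.23 in SCI mice (3.21-fold; limma, adjusted p = 1.95e-05), and the difference in sham mice was 0.32 ± 0.22 (adjusted p = 0.24). The difference between these CDTX effects, the interaction, was 1.36 ± 0.32 (adjusted p = 0.00446). In CDTX muscle C3 was 0.86 ± 0.23 higher after SCI (adjusted p = 0.0093). With each array scaled to its median instead, C3 was called higher with CDTX in sham mice, by 0.74 (adjusted p = 0.0211), and its SCI effect in CDTX muscle, 0.72, did not pass (adjusted p = 0.0555).

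C2 and C4b encode the parts of the classical and lectin pathway convertase, C2 its protease and C4b the subunit that anchors it. Relative to all probes, both rose with CDTX in SCI mice and fell with it in sham mice. C2 lay at 8.0, 8.02 and 8.08 in SCI+CDTX and at 7.75, 7.07, 7.61 and 7.71 in SCI+Saline. In sham mice it lay at 7.18, 7.25, 7.04 and 7.46 with CDTX and at 8.19, 8.14, 8.25 and 8.27 with saline. No pair of groups overlapped in C2 except SCI+Saline and Sham+CDTX. The CDTX effect was 0.50 ± 0.16 in SCI mice (limma, adjusted p = 0.018) and -0.98 ± 0.15 in sham mice (adjusted p = 2.55e-05). The first of these calls was lost without SCI+CDTX replicate 4 (adjusted p = 0.0595) or SCI+Saline replicate 2 (0.34, adjusted p = 0.0608).

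C4b moved the same ways. It lay at 8.34, 8.65 and 8.0 in SCI+CDTX and at 7.76, 6.82, 7.80 and 7.54 in SCI+Saline. In sham mice it lay at 7.37, 7.46, 6.86 and 7.16 with CDTX and at 7.99, 7.88, 7.93 and 8.05 with saline. CDTX and saline arrays did not overlap after either operation, while SCI+CDTX overlapped Sham+Saline. The CDTX effect was 0.85 ± 0.21 in SCI mice (limma, adjusted p = 0.0035) and -0.75 ± 0.20 in sham mice (adjusted p = 0.00419). The interaction was 1.60 ± 0.29 for C4b (adjusted p = 0.000663) and 1.48 ± 0.22 for C2 (adjusted p = 0.000124). In CDTX muscle SCI mice had 1.12 ± 0.21 more C4b (adjusted p = 0.000643) and 0.80 ± 0.16 more C2 (adjusted p = 0.000978). C2 and C4b were the pair of detected genes most alike, at 0.27, followed by C3 and Cfb at 0.38. Over all genes, C2 was most like Pan2 at 0.09, Pheta1 at 0.13 and Rusc2 at 0.14, C4b was most like Slc35b2 at 0.20, Gramd4 at 0.21 and Lemd2 at 0.22, and C3 was most like Igfbp4 at 0.21, Cant1 at 0.22 and Prelp at 0.23.

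The fall in sham mice depended on scaling. The Sham+Saline arrays were the dimmest, with mean raw intensities of 230.5 to 277 against 319.9 to 373.1 on the other 12. Raw C2 intensity was 250.2, 283.5, 261.9 and 302.5 in Sham+CDTX and 241.6, 225.7, 283.9 and 317.1 in Sham+Saline, which overlap. Raw C4b was 272.6, 313.9, 241.7 and 264.1 in Sham+CDTX and 219.9, 201.5, 240.5 and 281.1 in Sham+Saline, which overlap as well. With each array scaled to its median, the difference in sham mice was -0.20 for C2 (adjusted p = 0.369) and 0.04 for C4b (adjusted p = 0.903), so the sign of C4b turned. That scaling moved the median of all kept probes in sham mice to 0.32, and relative to it C2 stood at -0.53 and C4b at -0.29. It also moved the share of calls that were higher from 47.3% to 85.1% in sham mice, from 47.6% to 64.9% in SCI mice, from 50.3% to 86.4% for SCI in saline muscle, from 49.4% to 82.6% for both against neither and from 51% to 17.7% for the interaction. The 2 interactions passed under either scaling, at 0.96 for C2 (adjusted p = 0.00972) and 1.05 for C4b (adjusted p = 0.0216), while that of C3 did not, at 0.76 (adjusted p = 0.138).

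Across the SCI effects in CDTX muscle, 4 of the 8 genes rose (C2, C4b, C3 and Cfb) and none fell, where 14.9% of all kept probes were higher and 14.9% lower. The median of the 8 genes was 0.78, beside 0.01 over all kept probes. For the interaction 3 of the 8 were higher and none lower, where 12% of all kept probes were higher and 11.6% lower; the medians were 0.64 and -0.01. For the interaction, median scaling called 841 of all 14763 kept probes higher and 3902 lower, and moved their median to -0.24. Of the 8 genes 2 were then higher (C2 and C4b) and 3 lower (C1qa, C1qb and Serping1). These results moved with a difference between arrays that other genes show. For the 2846 genes with at least 2 kept probes, a score was taken as the main axis of the differences between the 2 brightest probes of the same gene, which held 33.1% of their variance. The score was 0.35 to 0.39 on the Sham+CDTX arrays, 0.28 on the excluded SCI+CDTX array and -0.27 to -0.06 on the other 11. On that excluded array C2 was at 7.21, C4b at 7.38 and C3 at 10.67 after normalization of all 16 arrays, among the Sham+CDTX arrays and below the other SCI+CDTX arrays. With that array included and no score, the CDTX effect in SCI mice was 0.28 for C2 (adjusted p = 0.28) and 0.60 for C4b (adjusted p = 0.0627). The SCI effect in CDTX muscle was then 0.65 for C3 (adjusted p = 0.0762) and 0.59 for Cfb (adjusted p = 0.146), while C2 and C4b were still called.

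With the score as a covariate over all 16 arrays, the SCI effect in CDTX muscle was -0.20 for C2 (95% interval -0.73 to 0.33), -0.09 for C4b (-0.78 to 0.60), 0.07 for C3 (-0.77 to 0.91) and -0.36 for Cfb (-1.17 to 0.45). None of the 8 genes was then called by limma, and 0 had an unadjusted p under 0.05. The interactions fell to 0.37, 0.26 and 0.49 for C2, C4b and C3, with 0 of 8 genes called and 2 at an unadjusted p under 0.05, both of them C1q chains. The sham CDTX effect became 0.27 for C2 (adjusted p = 0.664) and 0.78 for C4b (adjusted p = 0.264). Only the excluded array separates the score from Sham+CDTX, so these intervals are wide. In the same fit C1qa, C1qb, Cfb and Cfp still rose with CDTX in sham mice, and the same 7 genes rose with it in SCI mice. Each of the 9 genes has a single probe, so agreement between its own probes cannot be checked.

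**Figure D3:**
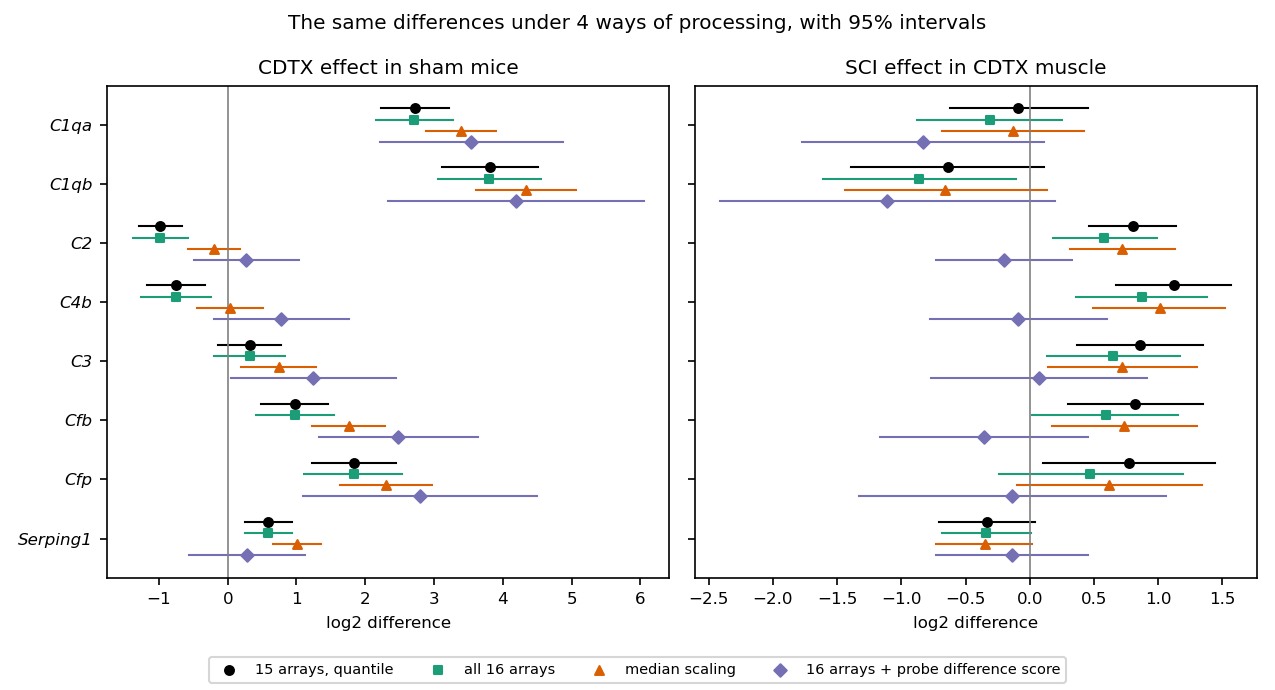
Log2 difference with 95% intervals (horizontal axis) of the 8 detected genes for CDTX in sham mice (left) and SCI in CDTX muscle (right) under 4 ways of processing the arrays. The rise of C1qa, C1qb, Cfb and Cfp on the left keeps its sign in all 4. With the score the sign turns for C2 and C4b in both panels and for Cfb and Cfp on the right. That of C4b on the left turns with median scaling as well.

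**Figure D4:**
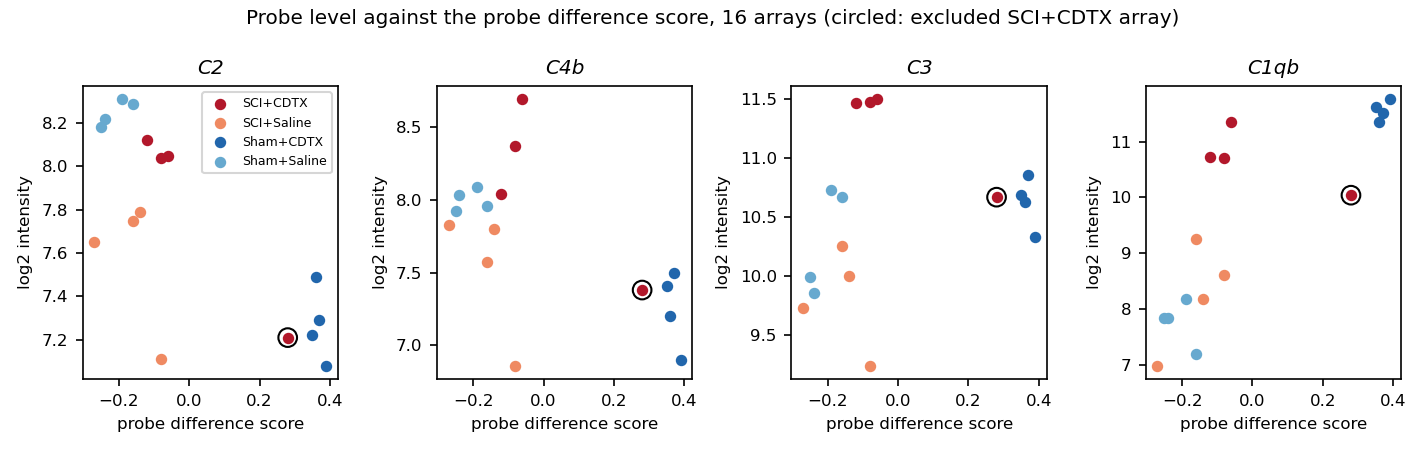
Log2 intensity after normalization of all 16 arrays (vertical axis) against the probe difference score (horizontal axis, no unit) for C2, C4b, C3 and C1qb; colours mark the groups. The circled excluded SCI+CDTX array, at a score of 0.28, lies nearer to the Sham+CDTX arrays in C2, C4b and C3 than to its own group.

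Markers of other cells also differed between SCI+CDTX and Sham+CDTX, a comparison in which 14.9% of all kept probes were higher after SCI and 14.9% lower. Of 7 lymphocyte genes 3 were kept, Cd3e, Cd3g and Cd79b. Cd79b was higher in SCI+CDTX than in Sham+CDTX, by 1.31 (limma, adjusted p = 0.0241). Cd3e and Cd3g were each detected on 3 SCI+CDTX arrays, 1 Sham+CDTX array and 0 saline arrays. They passed the detection filter only through the group where they are high, so their differences, 0.93 and 0.84, are given without a test. The list's summed intensity was 123 to 203 in SCI+CDTX, 65.2 to 92.1 in Sham+CDTX, 63.4 to 107 in SCI+Saline and 58.8 to 124 in Sham+Saline; Ms4a1, Cd8a and Cd4 were among those not kept. Of 5 adipocyte genes 4 were kept and 3 were higher, and the sum was 1730 to 2150 in SCI+CDTX against 605 to 1430 in Sham+CDTX. Of 5 endothelial genes all were kept and 1 was higher, Pecam1, with sums of 698 to 883 and 612 to 656. The fibroadipogenic list went the other way, with 2 of 7 genes lower and sums of 11400 to 14500 against 18000 to 22500. After normalization of all 16 arrays the excluded SCI+CDTX array had sums of 98.4 (lymphocyte), 2440 (adipocyte), 736 (endothelial) and 17900 (fibroadipogenic). Its adipocyte sum was thus above both CDTX groups and its endothelial sum within the SCI+CDTX range. Of the 8 kept macrophage and monocyte genes 1 was higher after SCI, Cd163, and 2 were lower, Mrc1 and Cx3cr1, the latter kept only through Sham+CDTX. The part of these cells was not tested either. None of 5 liver genes (Alb, Apoa1, Ttr, Fgb and Serpina1a) had a kept probe, and all 8 muscle fibre genes had one.

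Serping1 encodes the C1 inhibitor, the serpin that inactivates the proteases of the C1 complex. It changed least of the 8 genes with CDTX in SCI mice. It lay at 10.44, 10.34 and 10.06 in SCI+CDTX and at 10.10, 10.40, 9.59 and 10.26 in SCI+Saline, which overlap. In sham mice it lay at 10.53, 10.71, 10.57 and 10.64 with CDTX and at 9.92, 10.21, 9.79 and 10.14 with saline, which do not. CDTX raised it by 0.59 ± 0.16 in sham mice (limma, adjusted p = 0.00577), and the difference in SCI mice was 0.19 (95% interval -0.18 to 0.57, adjusted p = 0.415). The interaction was -0.40 ± 0.24 (adjusted p = 0.259). After median scaling the interaction was -0.94 and passed (adjusted p = 0.0069). With the score the sham effect was 0.28 (adjusted p = 0.69). The genes most like Serping1 were Zfp414 at 0.15, Arl6 at 0.16 and Mgl2 at 0.17.

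C3ar1 encodes the receptor for the peptide released from C3, carried by myeloid cells among others. Its probe read 86.8 to 105.3 in raw intensity, with detection p-values of 0.119 to 0.94, so it was not above background on any of the 16 arrays. No fold is given for it, and no level of the receptor's RNA can be ordered between groups from this probe.

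In saline muscle 1 of the 8 genes was called for SCI by limma, with 4 at an unadjusted p under 0.05. Of the 8, C2 was lower after SCI, by -0.68 ± 0.15 (limma, adjusted p = 0.00205), and none was higher; 14.8% of all kept probes were higher and 14.6% lower. After median scaling the C2 value was -0.25 (adjusted p = 0.338), and C1qa, C1qb and Serping1 were called higher. That scaling called 4436 of all 14763 kept probes higher and 696 lower in this comparison. C4b differed by -0.48 and C3 by -0.51, with adjusted p = 0.0759 and 0.0895. C4b passed without SCI+Saline replicate 3 (adjusted p = 0.0446), and C3 passed without SCI+Saline replicate 4 (adjusted p = 0.0297) or without Sham+Saline replicate 1 (adjusted p = 0.0365). The median of the 8 genes was 0.10, beside -0.01 over all kept probes.

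With both injuries against neither, C1qa, C1qb, C3, Cfb and Cfp were higher in SCI+CDTX than in Sham+Saline and none was lower, where 23% of all kept probes were higher and 23.6% lower. The log2 differences were 2.63 for C1qa, 3.17 for C1qb, 1.18 for C3, 1.80 for Cfb and 2.60 for Cfp, with limma's largest adjusted p at 0.000396, for C3. C2 differed by -0.18 (adjusted p = 0.387), C4b by 0.37 (adjusted p = 0.173) and Serping1 by 0.26 (adjusted p = 0.246). After median scaling all 8 were called higher, C2 by 0.52 (adjusted p = 0.0329). That scaling called 6449 of all 14763 kept probes higher and 1356 lower, and their median stood at 0.32. Relative to that median C2 stood at 0.19, Serping1 at 0.33 and C4b at 0.72. This comparison shares SCI+CDTX and Sham+Saline with the others and is no independent view of them.

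The rest of the pathway was read from a list of 41 other complement genes, of which 18 had a kept probe. With CDTX 3 rose and 5 fell in SCI mice, and 4 rose and 8 fell in sham mice. Itgb2 and Itgam, among the rises after either operation, were kept only through the CDTX groups. The shares of all kept probes were 20.4% and 22.5% in SCI mice and 23.1% and 25.8% in sham mice. In CDTX muscle 4 were higher after SCI and none lower, where 14.9% of all kept probes were higher and 14.9% lower. In saline muscle 1 was lower, where 14.8% of all kept probes were higher and 14.6% lower. In CDTX muscle the calls became 1 higher and 0 lower with all 16 arrays, 4 higher and 2 lower with median scaling, and 0 with the score (limma, 3 at an unadjusted p under 0.05). For the interaction 0 of 18 were called by limma with 5 at an unadjusted p under 0.05. Of all kept probes 12% were higher and 11.6% lower there. Median scaling called 3, Itgam higher by 0.56 and C1qc and C8b lower at -1.65 and -0.60, with 4 at an unadjusted p under 0.05. The list's median was 0.02 for CDTX in SCI mice and -0.27 in sham mice, beside -0.05 and -0.04 over all kept probes.

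Among the receptors, Itgb2 and Itgam encode the chains of complement receptor 3, which binds fragments of C3 on coated targets. Itgb2 was detected on 3 SCI+CDTX, 4 Sham+CDTX, 2 SCI+Saline and 0 Sham+Saline arrays, and Itgam on 3, 4, 0 and 0. Both passed the detection filter only through the CDTX groups, where they are high. Their CDTX differences are therefore given without a test, and as a bound where the saline group had no detected array. Itgb2 was 1.96 ± 0.24 higher with CDTX in SCI mice and at least 2.12-fold higher in sham mice. Itgam was at least 1.63-fold higher with CDTX in SCI mice and at least 1.14-fold higher in sham mice. Such a bound sets the bright group's mean against, on each dim array, the higher of the probe's own value and the lowest detected value. In CDTX muscle both were higher after SCI, Itgb2 by 0.88 (limma, adjusted p = 0.00867) and Itgam by 0.43 (adjusted p = 0.0435). Neither was called with the score.

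Among the inhibitors and terminal components of this list, which leaves out Serping1, the calls with CDTX were all falls. The 5 kept inhibitors of the list all fell with CDTX in sham mice, and Cd59a, Cd59b and Vtn also fell in SCI mice. Serping1, an inhibitor as well, went the other way in sham mice, with a rise of 0.59 (limma, adjusted p = 0.00577). Its difference in SCI mice, 0.19, was not called. Of all kept probes 25.8% fell in sham mice and 22.5% in SCI mice. Cd59a and Cd59b encode surface proteins that block the membrane attack complex, and Vtn encodes vitronectin, which inhibits the same step in plasma. In SCI mice Cd59b fell by 1.15 (limma, adjusted p = 0.000112), Vtn by 0.79 (adjusted p = 0.000559) and Cd59a by 0.64 (adjusted p = 0.00763). In sham mice the values were -1.09, -1.19 and -0.90. After median scaling those of Cd59b and Cd59a in sham mice were -0.27 and -0.43 and no longer passed, while Vtn still did at -0.42. Cd55 and Cr1l encode inhibitors that speed the decay of convertases or aid the breakdown of already activated C3. They fell by 0.44 and 0.62 in sham mice, but after median scaling Cd55 rose by 0.38 and Cr1l stood at 0.08. C8g and C8b, chains of the terminal component C8, fell by 0.86 and 0.65 in SCI mice and by 1.11 and 0.43 in sham mice. After median scaling C8b did not pass in either, at -0.39 in SCI mice and 0.21 in sham mice. With the score Cd59a and Cd59b were still called lower in sham mice, C8g, C8b, Vtn and Cd55 were not, and Cr1l was called higher, by 1.13. Cfd, the protease that activates factor B and a product of fat cells, was lower by 0.77 with CDTX in sham mice (adjusted p = 0.0045) and higher by 0.86 after SCI in CDTX muscle (adjusted p = 0.00628). With the score these were -0.04 (adjusted p = 0.968) and 0.38 (adjusted p = 0.694). Vtn was the gene lower after SCI in saline muscle, by 0.76 (adjusted p = 7e-04).

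C1s1, a protease of the C1 complex, rose by 0.47 in sham mice with its brighter probe (limma, adjusted p = 0.0357) and by 0.22 with its other probe (adjusted p = 0.484). Fcna, a ficolin of the lectin pathway, had CDTX differences of 0.59 and 0.60 in SCI and sham mice and did not pass. C1rl, Fcnb, C9, C5ar1 and Vsig4 passed neither CDTX test. Genes without a kept probe included C1ra, Mbl1, Mbl2, Masp1, Masp2, C4a, Hc, C6, C8a, C5ar2, Cr2, Itgax, Cd46, Cd55b, Cfi, C4bp, Cpn1, Cpn2 and Susd4, and no probe of Colec11, C7 or Clu was used here.

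**Figure D5:**
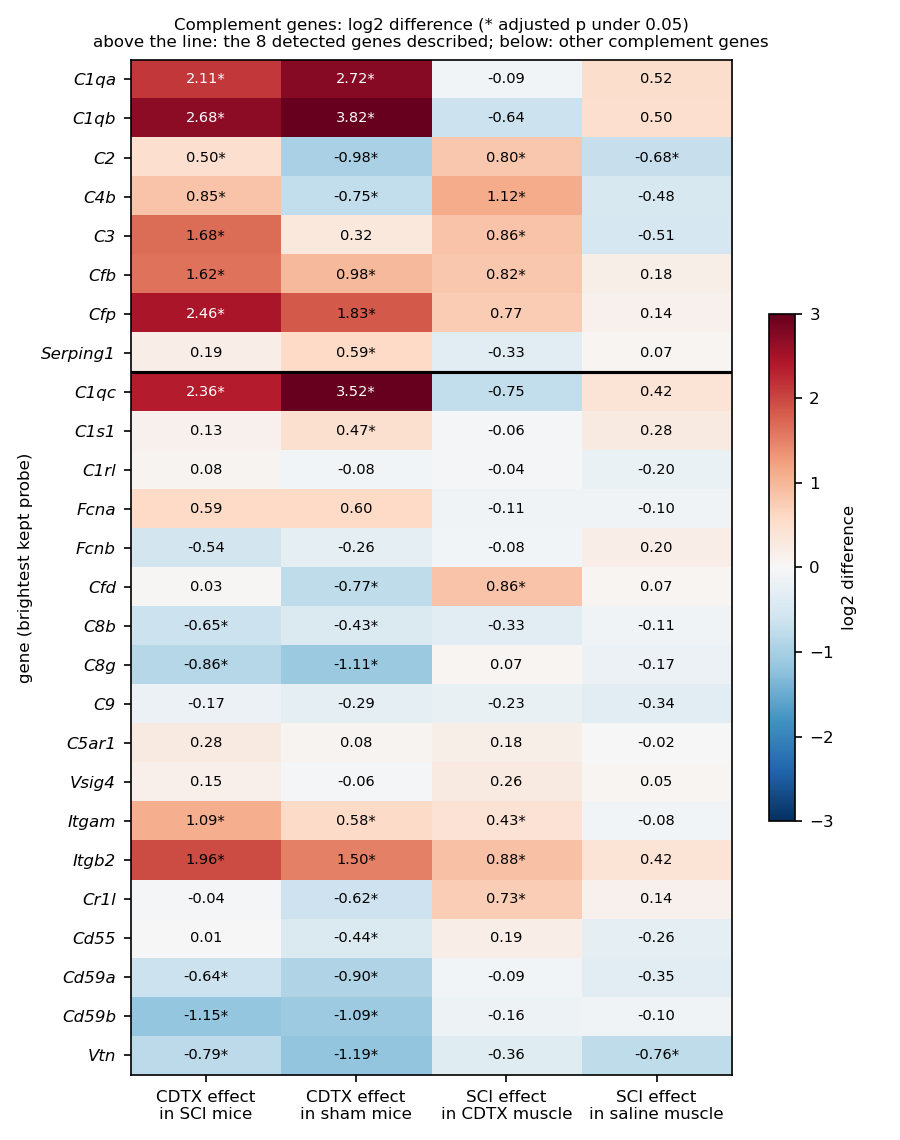
Log2 difference (colour and number) of the 8 detected complement genes (above the line) and 18 other complement genes (below) in 4 comparisons; asterisks mark limma adjusted p under 0.05. C1qc follows C1qa and C1qb, and Itgb2 and Itgam, kept only through the CDTX groups, are higher with CDTX. Cd59a, Cd59b, Vtn, C8b and C8g are lower with it in both SCI and sham mice. Of these C8b turns to 0.21 in sham mice after median scaling.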

How the data were processed

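The non-normalized file that the authors deposited gives the mean bead intensity, the detection p-value and the bead number of 25697 probes on 16 arrays, with no normalization, per the file headers. The authors used GenomeStudio 2011.1, per the submitters' processing notes, and deposited 2 further tables of group mean intensity, background-subtracted and normalized by the average method, per the file headers; the final one adds difference p-values against SCI+CDTX. Each array detected 11114 to 13694 probes with 33.3 to 38.9 beads per probe on average; the number of arrays limits precision.

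Intensities of 15 arrays were background-corrected from detection p-values (normal-exponential model), quantile normalized and set to log2 with offset 16 in limma 3.58.1 (R 4.3.3, data.table version 1.17.8); the offset understates changes of dim probes. One linear model of the 4 group means with eBayes was fitted to all 14763 kept probes. On simulated data with 200 probes changed by 1 log2, 79.5% were recovered for the CDTX effect in SCI mice, 83.5% for the SCI effect in CDTX muscle and 35% for the interaction, over 14763 probes. The simulation changed SCI+CDTX alone and left all other probes equal between groups. In the data 6338 probes were called for CDTX in SCI mice, so these shares do not carry over to the tests reported here. Symbols were updated through Entrez identifiers (23681 probes) or accessions (1202 probes) in RefSeq.

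All probes of the 9 genes are reported; other complement genes are named where called, and most absent ones once; a few names are not reported here. The members and lists were chosen with earlier results of these data known. Sharing a replicate number did not pair arrays (correlation of deviations -0.271 to 0.377 over 21 pairs, above 0.1 in 3). Whether the arrays are separate mice rests on their titles, and p-values measure the spread between arrays. No 2 arrays held the same values. Alternatives are given in the closing section.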

Additional observations from a re-analysis of the deposited data

Results flagged for a closer look

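The CDTX effect differed between SCI and sham mice, by the test of the difference itself, for 3 of the 8 detected genes: by 1.48 for C2, 1.60 for C4b and 1.36 for C3 on the log2 scale. All 3 moved with the probe difference score, and none was called with the score as a covariate. After median scaling C3 did not pass this test, at 0.76 (limma, adjusted p = 0.138). In the main fit 12% of all kept probes were higher and 11.6% lower for the same difference.

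The undetected C3ar1 probe read 4.17 on Sham+CDTX replicate 2, below the other 3 arrays of its group by more of the range than Dixon's limit allows; at 4.25 to 4.26 the others are at background as well. Chance sets off this limit in about 5% of groups, and 27 groups of 4 arrays were looked at.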

How the results depend on the processing

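Of 1264 refits of single genes, 1214 stayed on the same side of the threshold, 20 lost a call, 23 gained one and 7 reversed. A change of sign counted as a reversal only where the main fit or the refit was called. The 1214 therefore include uncalled differences whose sign turned, such as the interaction of Cfb, 0.64 in the main fit and -0.67 at its lowest. The rises of C1qa, C1qb, Cfb and Cfp with CDTX, and of C3 in SCI mice, were called in every refit of the deposited intensities. With all 16 arrays the count for SCI in CDTX muscle was 2, and with array weights 7, of which 5 were higher and 2 lower (C1qb and Serping1). Median scaling gave 3 for SCI in saline muscle, 8 for both against neither and 5 for the interaction, 2 higher and 3 lower; C4b in sham mice reversed to 0.04 and C2 for both against neither to 0.52. With the probe difference score 4 were called for CDTX in sham mice, 0 for SCI in CDTX muscle (limma, 0 at an unadjusted p under 0.05) and 0 for the interaction (2 at an unadjusted p under 0.05). With it C2 and C4b reversed to 0.27 and 0.78 in sham mice, and C2, C4b and Cfb to -0.20, -0.09 and -0.36 for SCI in CDTX muscle. The cause was not tested. Without each array in turn the counts ranged from 6 to 7 for CDTX in SCI mice, 7 to 7 in sham mice, 3 to 5 for SCI in CDTX muscle, 1 to 4 in saline muscle, 5 to 5 for both against neither and 3 to 4 for the interaction. A replicate block, though the numbers did not pair the arrays, left 7, 7, 4, 1, 5 and 3 called, the same genes. Over all kept probes the score gave 3058 calls against 7219 for CDTX in sham mice, 264 against 4393 for SCI in CDTX muscle and 43 against 3483 for the interaction; all 16 arrays gave 2613 and 1532 for the last pair. The authors' deposited final table had 7, 6 and 6 of the 8 genes at a difference p under 0.05 for SCI+CDTX against, in turn, the SCI+Saline, the Sham+CDTX and the Sham+Saline group; whether that p is adjusted is not given in the sources used here. Signal over background limits C3ar1, C9 and C5ar1.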
